A study of Sus scrofa with 33 samples.

Results

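The comparison concerns 6 pigs (Sus scrofa) in which the right ventricle was put under pressure load and then partly relieved of its inflow. Each pig gave a biopsy of the right ventricular free wall at baseline and a last biopsy after banding and a Glenn shunt, and these 12 arrays, paired by pig, are the 12 of 33 arrays compared here. The arrays were chosen by their labels alone: the 6 shunt arm arrays labelled as baseline and the 6 labelled as 60 min of banding plus shunt. The remaining arrays were the middle biopsy of the same pigs, after 120 min of banding (6 arrays), and the 3 biopsies of 5 control pigs, whose last 60 min passed with banding and no shunt. The pigs were assigned to the arms at random once right ventricular failure had been established. Pulmonary banding was part of the course in all 11 pigs, so a change from baseline to the last biopsy holds everything that elapsed between them. In the shunt arm this was 120 min of banding, the operation and a further 60 min labelled as banding plus shunt. The labels name no strain, age or sex and mention no pooling of animals.

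Pulmonary banding narrows the pulmonary artery, so that the thin-walled right ventricle has to pump against a raised pressure. A Glenn shunt leads blood of the superior vena cava straight into the pulmonary artery, so that part of the venous return reaches the lungs without passing through the right ventricle. Ventricular muscle under acute load is known to switch on immediate early transcription factors, natriuretic peptides and proteins of the intercalated disc and Z-disc. Injured or stretched myocardium also makes cytokines and chemokines that activate the endothelium and draw leukocytes, and it depends on mitochondrial oxidation for most of its ATP.

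Values are log2 hybridisation signals of probe sets after RMA, an array summary that includes quantile normalisation, and a change is a difference of log2 values within a pig. Across the table the values ran from 2.21 to 15.20. Precision is limited by the number of arrays. The 12 arrays correlated pairwise between 0.9576 and 0.9917. As a measure of RNA integrity, the 3' signal of GAPDH exceeded its 5' signal by 0.79 ± 0.22 at baseline and by 0.85 ± 0.28 at the last biopsy (SD, n = 6 pigs). For actin the excess was far larger, 5.01 ± 0.22 at baseline and 5.03 ± 0.32 at the last biopsy (SD, n = 6 pigs). Spiked-in control RNAs divided the shunt pigs into 2 array sets: the Dap control gave 3.12 ± 0.14 on the 8 arrays of pigs 1 to 4 and 10.03 ± 0.26 on the 4 arrays of pigs 5 and 6 (SD over arrays). Both arrays of a pig were always in the same set. The 10 arrays of the control pigs differed from both sets in the BioB control, with 9.41 ± 0.38 against 8.33 ± 0.17 in pigs 1 to 4 and 6.06 ± 0.13 in pigs 5 and 6 (SD).

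The labelled tissue was checked against defining markers. The 14 measured ventricular cardiomyocyte markers had a mean level of 13.83 to 13.90 on the baseline arrays and 13.59 to 13.86 on the last arrays, near the top of the scale. Beta-myosin heavy chain, MYH7, stood between 14.99 and 15.02 at baseline and between 14.87 and 15 at the end. It changed by -0.04 ± 0.05 (SE) and did not pass the test, at a level close to the highest value of the table.

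In limma 7815 of 23999 probe sets (32.6%) differed between the last biopsy and baseline at an adjusted p below 0.05, 3200 of them higher (13.3%) and 4615 lower (19.2%). With 1 probe set per gene, 2725 of 6765 genes (40.3%) passed, 1129 higher (16.7%) and 1596 lower (23.6%). Falls were more numerous and smaller: 198 genes that passed (2.93% of all 6765) were at least 2-fold higher and 54 (0.798%) at least 2-fold lower. The median change over all genes was -0.02. In 694 genes (10.3%) the 2 groups of arrays did not overlap: in 359 (5.31%) every last array was above every baseline array, and in 335 (4.95%) below. In all 6 pigs alike, 770 genes that passed were higher (11.4% of all 6765) and 1049 lower (15.5%). In bulk tissue, fewer cells of a type and less RNA per cell cannot be told apart.

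No gene rose more than PTX3. It encodes pentraxin 3, a pattern recognition protein made by endothelium, fibroblasts and leukocytes under inflammation. Its level lay between 5.70 and 8.77 at baseline (median 6.16) and between 10.62 and 12.80 at the last biopsy (median 12.06). The groups did not overlap: the highest baseline, that of pig 4, was below the lowest last value, that of pig 5. The rise of PTX3 was 34.5-fold, or 5.11 ± 0.45 on the log2 scale (SE of the limma fit to all 33 arrays, whose spread is shared by both arms), and the test gave an adjusted p of 2.46e-08.

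The chemokines and cytokines of the same inflammatory group followed. CCL2, which draws monocytes, went from 7.87 to 11.04 (median 8.65) at baseline to 11.18 to 13.45 (median 12.81) at the end and rose 11.4-fold (3.50 ± 0.39, adjusted p = 4.65e-07). Its groups stood apart by a narrow margin, since pig 4 began at 11.04 and pig 5 ended at 11.18. CXCL8, the neutrophil chemokine interleukin 8, rose 8.52-fold (3.09 ± 0.47, adjusted p = 1.90e-05), from 2.99 to 4.74 (median 3.45) at baseline to 4.91 to 9.38 (median 6.68), again without overlap. The cytokine gene IL6 rose 12.4-fold (3.63 ± 0.58, adjusted p = 3.51e-05), from a median of 4.47 to 8.62. Here the groups overlapped: pig 4 began at 7.14, above the last values of pigs 5 and 6, and changed by 0.26, whereas pig 3 changed by 6.52.

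Of 30 measured cytokines, chemokines and NF-kB targets, 16 rose and none fell (53.3%, against 16.7% of all genes that rose), with a median change of 0.78. Receptors were among the firmest members. TLR4, the receptor for endotoxin and for damage signals, rose by 1.31 ± 0.13 (adjusted p = 6.98e-08) and IL1R1, the signalling receptor of interleukin 1, by 2.20 ± 0.25 (adjusted p = 5.82e-07), each without overlap of the groups. A further probe set of IL1R1 gave 0.10 and did not pass, so its size rests on 1 set. In the IL-6 to STAT3 list, 7 of 11 measured genes rose and none fell (63.6%, against 16.7% of all genes that rose), with a median of 0.61. Whether these rises depended on IL-6 was not tested. STAT3, the transcription factor that cytokine receptors of this family activate, rose by 1.43 ± 0.14, its kinase JAK2 by 1.17 ± 0.17, the acute-phase factor CEBPD by 1.03 ± 0.15 and haptoglobin, HP, by 0.92 ± 0.21.

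The list of leukocyte adhesion molecules and products of activated endothelium held 27 measured genes, of which 14 rose and 3 fell (63%, against 40.3% of all genes). Its median was 0.31. E-selectin, SELE, the rolling receptor that endothelium shows after cytokine exposure, rose 8.29-fold (3.05 ± 0.46, adjusted p = 1.83e-05). It was higher in 5 of 6 pigs: pig 4, with the highest baseline of 6.62, changed by -0.14, and pig 1 by 5.33. ICAM1, the integrin ligand for firm adhesion, rose 3.97-fold (1.99 ± 0.30), HBEGF, a membrane-bound growth factor, 3.24-fold and EDN1, which encodes the vasoconstrictor endothelin 1, 2.19-fold. The 3 members that fell were the angiopoietin receptor TEK (-0.59 ± 0.11), its ligand ANGPT1 (-0.70 ± 0.14) and CD34 (-0.41 ± 0.10); ANGPT1 was picked after its values were seen. The other probe sets of TEK (0.04 to 0.09) and ANGPT1 (-0.11) did not pass.

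**Figure D1:**
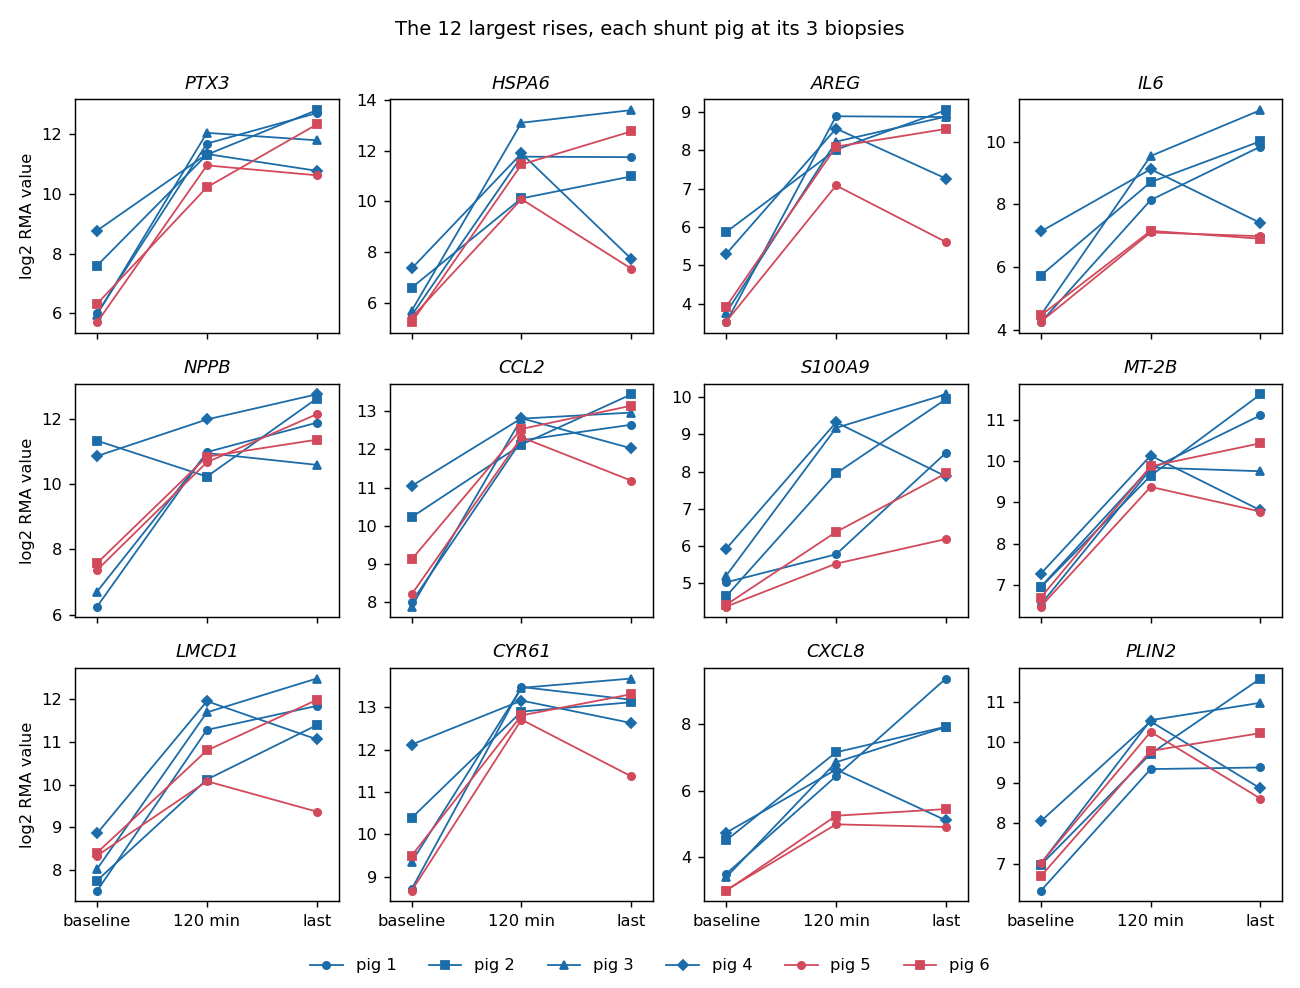
Log2 RMA values (vertical axes, a scale of its own for each gene) of the 12 genes with the largest rises among those higher in all 6 pigs, at the 3 biopsies of each shunt pig (horizontal axes). Each line is 1 pig, blue for pigs 1 to 4 and red for pigs 5 and 6, the 2 array sets. PTX3 ended between 10.62 and 12.80 after baselines of 5.70 to 8.77, and pig 4 had the highest baseline in 10 of the 12 panels.

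Leukocyte markers moved with these groups. Of 11 measured neutrophil and monocyte markers, 7 rose and none fell (63.6%, against 16.7% of all genes that rose), with a median of 0.47. Their mean level went from between 5.87 and 6.11 to between 6.15 and 7.53. S100A9, a calcium-binding protein abundant in neutrophils and monocytes, lay between 4.38 and 5.93 (median 4.85) at baseline and between 6.19 and 10.07 (median 8.23) at the last biopsy. It rose 11.2-fold (3.48 ± 0.39, adjusted p = 4.94e-07) without overlap of the groups, while its partner S100A8 rose by 0.99 ± 0.20, the adaptor TYROBP by 0.89 ± 0.17 and S100A12 by 0.68 ± 0.14. The mean change of the markers was positive in 6 of 6 pigs, from 0.27 in pig 5 to 1.51 in pig 2. Their part in the cytokine and adhesion results was not tested.

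Markers of other cell types were summarised in the same way, beside shares over all genes of 16.7% higher and 23.6% lower. Of 8 resident macrophage markers 2 rose, the scavenger receptor CD163 (1.12 ± 0.14) and the mannose receptor MRC1 (0.36 ± 0.11), and none fell; their mean level was 7.05 to 7.33 at baseline and 7.17 to 7.61 at the end. None of 12 lymphocyte markers passed (4.88 to 5.14 against 4.91 to 5.23), none of 4 erythrocyte markers (6.83 to 8.07 against 7.11 to 9.45, with a median change of 0.64 and a positive mean change in 5 of 6 pigs) and none of 5 mesothelial markers (4.77 to 5.04 against 4.77 to 5.37). Of 4 platelet markers the integrin ITGB3 rose (0.89 ± 0.21). Of 12 endothelial markers the tight junction gene CLDN5 rose by 1.18 ± 0.23 and TEK and CD34 fell, with mean levels of 7.16 to 7.67 and 7.21 to 7.68. Among 7 smooth muscle and pericyte markers the contractile genes CNN1 (1.74 ± 0.17), TAGLN (0.98 ± 0.21) and ACTA2 rose, the last by 0.56 ± 0.20 and picked after its values were seen, and SMTN (-0.53 ± 0.10) and MYOCD (-0.36 ± 0.12) fell; their mean level went from 9.20 to 9.70 to 9.44 to 10.14. Of 9 fibroblast markers the collagen COL3A1 (0.68 ± 0.14) and the transcription factor TCF21 (0.70 ± 0.18) rose and DCN fell, with mean levels of 9.24 to 9.84 at baseline and 9.22 to 10 at the end. Of 5 adipocyte markers PPARG rose (0.58 ± 0.12) and FABP4 fell (-0.46 ± 0.15), of 5 atrial markers SLN rose and NR2F2 fell, and of 5 Schwann and neural markers S100B fell by 0.58 ± 0.11.

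**Figure D2:**
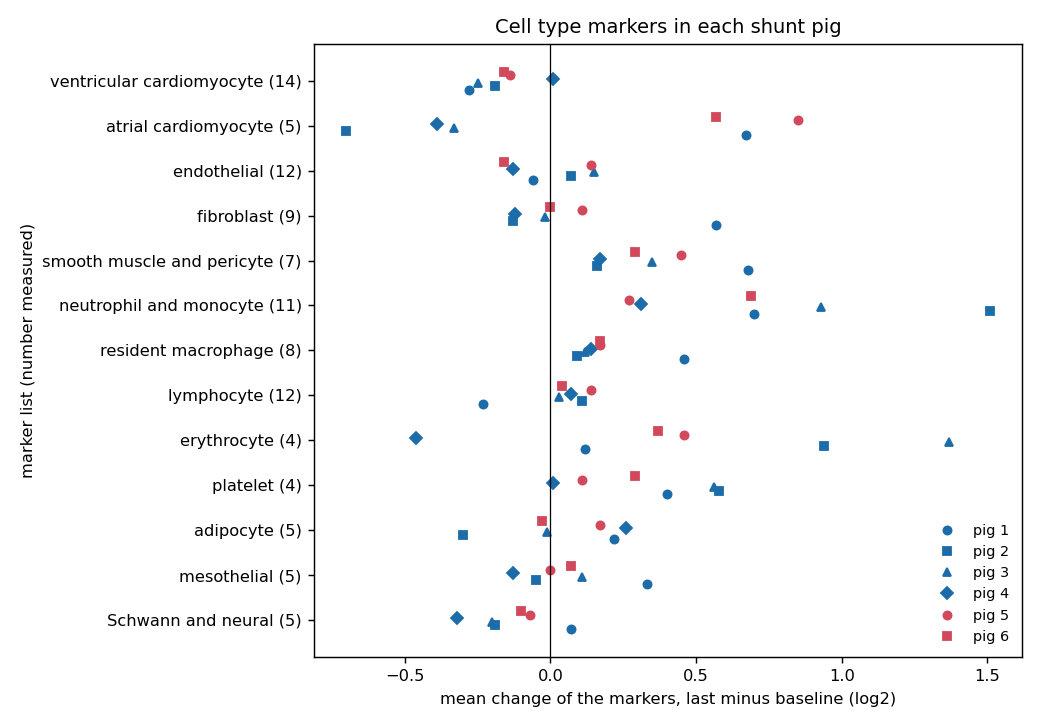
Mean change of each marker list from baseline to the last biopsy (horizontal axis, log2) in each of the 6 shunt pigs (1 symbol per pig), with the number of measured markers beside each list. The neutrophil and monocyte markers lie to the right of 0 in every pig, from 0.27 to 1.51, and pig 1 stands to the right for fibroblast markers at 0.57.

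Load-responsive cardiac genes formed the list with the largest median change. Of 20 measured stretch-responsive and fetal cardiac genes, 13 rose and 1 fell (70%, against 40.3% of all genes), with a median of 1.30 against -0.02 over all genes. In 10 of them the groups did not overlap, against 10.3% of all genes. The natriuretic peptide gene NPPB, a marker of ventricular wall stress, rose 11.6-fold (3.54 ± 0.60, adjusted p = 6.11e-05), from between 6.25 and 11.33 (median 7.48) to between 10.59 and 12.75 (median 12.01). Pigs 2 and 4 already stood at 11.33 and 10.86 at baseline, above the last value of pig 3, so the groups overlapped. NPPA, the atrial natriuretic peptide gene, showed no common direction: it was higher in 3 of 6 pigs, between -2.47 in pig 2 and 3.24 in pig 5, and its mean change of 0.21 had an interval from -1.35 to 1.77 (95%).

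Among the LIM-domain and intercalated disc genes named here, errors ran from 0.08 for FHL1 to 0.35 for LMCD1. FHL1, a LIM protein of the sarcomere that takes part in stretch sensing, lay between 12.07 and 12.36 (median 12.15) at baseline and between 13.19 and 13.62 (median 13.30) at the end. Its changes in the 6 pigs ran from 1.00 to 1.36, the groups were well apart, and the mean rise was 1.19 ± 0.08 (2.28-fold, adjusted p = 8.24e-10). LMCD1, a LIM protein that takes part in calcineurin signalling, rose 9.20-fold (3.20 ± 0.35), from between 7.52 and 8.86 to between 9.37 and 12.48. XIRP1, which binds actin at the intercalated disc, rose 5.67-fold (2.50 ± 0.26), the Z-disc protein PDLIM3 3.74-fold (1.90 ± 0.19) and NRAP, a scaffold of myofibril assembly, 2.67-fold (1.42 ± 0.16). ANKRD1, a titin-binding ankyrin repeat protein, rose by 1.03 ± 0.10 on a probe set that ended between 14.07 and 14.58, and by 2.38 on its other set. CYR61, a matricellular protein induced by stretch, rose 8.53-fold (3.09 ± 0.36). The member that fell was FHL2, a LIM protein of the same family as FHL1, by 1.05 ± 0.11; it was picked after its values were seen.

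Immediate early genes were less even among the pigs. Of 17 measured, 10 rose and none fell (58.8%, against 16.7% of all genes that rose), with a median of 1.02. IER3, which counters apoptosis, rose 7.04-fold (2.82 ± 0.29), MYC 4.65-fold (2.22 ± 0.28), BTG2, which restrains proliferation, 5.82-fold (2.54 ± 0.39) and the AP-1 subunit FOSL2 3.05-fold (1.61 ± 0.22). ATF3, a stress-induced repressor, rose by 2.72 ± 0.55 and was higher in 5 of 6 pigs; pig 4 began with the highest level, 12.42, and changed by -1.05. FOS changed by 1.02 ± 0.58 (adjusted p = 0.195), between -1.53 in pig 5 and 3.98 in pig 3, and EGR1 by 0.49 ± 0.47 (adjusted p = 0.483), between -1.47 and 2.91. Of the 6 measured EGF receptor ligands and ERK feedback genes, 5 rose (AREG, HBEGF, DUSP6, EGFR and DUSP1, the last picked after its values were seen; median 0.65). AREG, which encodes the ligand amphiregulin, rose 13.1-fold (3.71 ± 0.44, adjusted p = 8.22e-07), from a median of 3.85 to 8.70, with an overlap, since pig 2 began at 5.87 and pig 5 ended at 5.61.

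Genes of ribosome biogenesis and translation factors, listed together, rose almost as a whole. Of 24 measured ribosome biogenesis and translation factors, 22 rose and none fell (91.7%, against 16.7% of all genes that rose), with a median of 0.67. In 13 of them the groups did not overlap, against 10.3% of all genes. EIF4A1, the helicase of the cap-binding complex, lay between 9.43 and 9.99 (median 9.81) at baseline and between 11.00 and 12.18 (median 11.74) at the end, a rise of 1.85 ± 0.15 (adjusted p = 9.98e-09). GNL3, nucleostemin, rose by 1.72 ± 0.14, the shared polymerase I and III subunit POLR1C by 1.17 ± 0.13 and the nucleolar protein NOP56 by 1.36 ± 0.16. The ribosomal proteins themselves differed: of 41 measured, RPL30 (0.54 ± 0.12), RPL26 (0.42 ± 0.11) and RPL3 (0.34 ± 0.10) rose, RPL37 fell by 0.42 ± 0.13, and the median was -0.01. Near-identical ribosomal protein pseudogenes make such single calls uncertain.

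Chaperones rose too. Of 31 measured heat shock proteins and co-chaperones, 19 rose and 1 fell (64.5%, against 40.3% of all genes), with a median of 0.59. HSPA6, an HSP70 that cells make almost entirely under stress, had the second largest rise of all genes, 26.6-fold (4.73 ± 0.74, adjusted p = 2.72e-05), and the widest spread: 7.93 in pig 3, 7.55 in pig 6, 6.24 in pig 1 and 4.40 in pig 2, but 1.92 in pig 5 and 0.37 in pig 4. Pig 4 ended at 7.73 and pig 5 at 7.34, and the latter lay below pig 4's baseline of 7.35. BAG3 and HSPB8, which act together to clear damaged sarcomere proteins, rose 4.08-fold (2.03 ± 0.28) and 3.13-fold (1.65 ± 0.20) with no overlap. CRYAB, the small heat shock protein of Z-discs and desmin, rose by 0.80 ± 0.08 on a probe set that ended between 13.90 and 14.41, and by 2.95 on its other set. For HSPA4 (0.96 ± 0.10) and DNAJB6 (0.89 ± 0.11) a further probe set passed in the opposite direction, so their direction is uncertain. The member that fell was the co-chaperone STIP1 (-0.23 ± 0.08), picked after its values were seen.

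Stress defence and growth arrest genes moved both ways. The metallothionein MT-2B, a zinc-binding antioxidant protein, went from between 6.47 and 7.27 (median 6.82) to between 8.78 and 11.63 (median 10.10), a rise of 9.74-fold (3.28 ± 0.40, adjusted p = 1.31e-06) with no overlap. HMOX1, haem oxygenase 1, rose 4.24-fold (2.09 ± 0.32) and MT1A 3.68-fold (1.88 ± 0.45). In the list of oxidative stress genes and metallothioneins as a whole, 9 of 26 rose and 5 fell (53.8%, against 40.3% of all genes), with a median of 0.08. Those that fell were TXNIP, which inhibits thioredoxin, MT3, CAT, NQO1 and PRDX2. The last 4 fell by 0.37, 0.34, 0.27 and 0.17 and were picked after their values were seen. Of 19 growth arrest, p53 and apoptosis regulators, 10 rose and 4 fell (median 0.40). TNFRSF12A, to which the cytokine TWEAK binds, rose 6.31-fold (2.66 ± 0.19, adjusted p = 1.91e-09) and GADD45A, a sensor of DNA damage and stress, 6.36-fold (2.67 ± 0.29). SESN1, a p53 target that restrains mTORC1, fell by 1.30 ± 0.14 and FAIM, an inhibitor of Fas-induced apoptosis, by 1.47 ± 0.17; CDKN1B (-1.04 ± 0.16) and PHLDA3 (-0.29 ± 0.10), picked after their values were seen, also fell.

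Of 23 genes of the integrated stress response and the response to unfolded proteins, 11 rose and 1 fell (52.2%, against 40.3% of all genes). The median was 0.22. CEBPG, a partner of ATF4, rose by 1.06 ± 0.13, the co-chaperone DNAJC3 by 0.59 ± 0.09, PPP1R15A, which restores translation, by 0.98 ± 0.15 and the alanyl-tRNA synthetase AARS by 0.49 ± 0.08. Asparagine synthetase, ASNS, a usual target of that response, fell by 0.41 ± 0.12 and was picked after its values were seen.

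**Figure D3:**
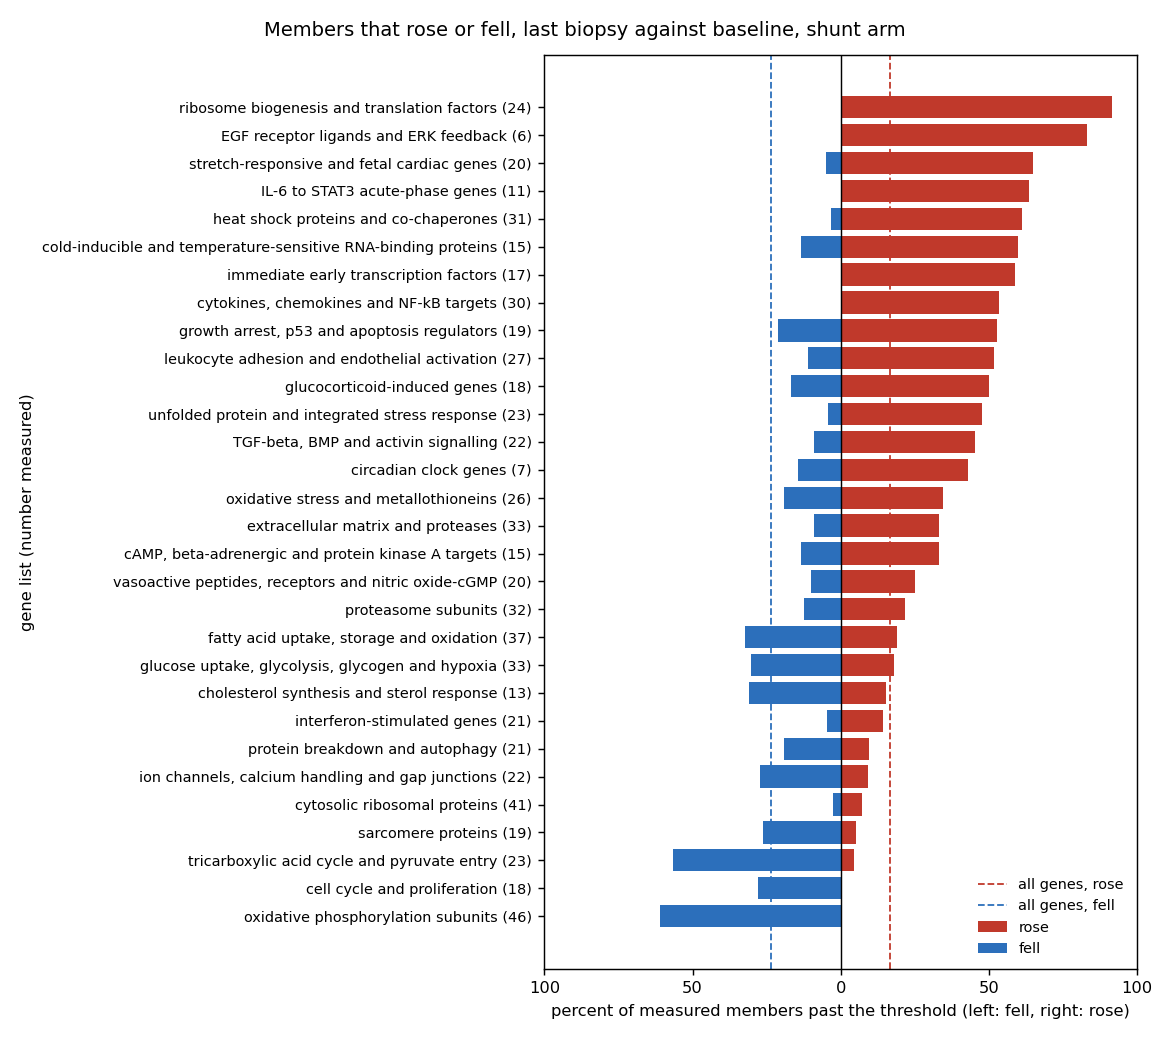
Share of the measured members of each of 30 gene lists that rose (red, to the right) or fell (blue, to the left) at an adjusted p below 0.05 in limma (horizontal axis, percent of members), with the number measured beside each list. Dashed lines mark the shares over all 6765 genes, 16.7% higher and 23.6% lower. Ribosome biogenesis and translation factors lie farthest to the right, with 22 of 24, and oxidative phosphorylation subunits to the left, with 28 of 46.

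Extracellular matrix genes rose in a subset. Of 33 measured, 11 rose and 3 fell (42.4%, near the 40.3% of all genes). The median of 0.08 was close to that of all genes. TIMP1, an inhibitor of matrix metalloproteinases, went from between 8.02 and 8.74 (median 8.40) to between 9.54 and 13.08 (median 11.14) and rose 7.24-fold (2.86 ± 0.36, adjusted p = 1.73e-06). The matricellular genes TNC and THBS1 rose 5.67-fold (2.50 ± 0.39) and 4.50-fold (2.17 ± 0.29), and PLAU, urokinase, 4.31-fold (2.11 ± 0.33). The falls were in COL15A1 (-0.52 ± 0.13), FBN1 (-0.34 ± 0.11) and DCN (-0.27 ± 0.10), the first pair picked after their values were seen. Of 22 genes of TGF-beta, BMP and activin signalling, 10 rose and 2 fell (median 0.34), led by the activin antagonist FSTL3 (0.96 ± 0.09), the BMP target ID1 (1.20 ± 0.16), SMAD3 (1.01 ± 0.15) and ID3 (0.84 ± 0.13); SMAD4 (-0.25) and BMPR1A (-0.32), picked after their values were seen, fell.

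Mitochondrial genes went down by small, even amounts. Of 46 measured oxidative phosphorylation subunits 28 fell and none rose, and every one of the 46 had a change below 0, between -0.44 and -0.06 (median -0.22). ATP5D, a subunit of the ATP synthase, lay between 11.52 and 11.69 (median 11.62) at baseline and between 10.78 and 11.46 (median 11.22) at the end, so that it fell by 0.41 ± 0.07 (adjusted p = 0.000128) without overlap. The complex I subunits NDUFS3, NDUFB10 and NDUFC2 fell by 0.44 ± 0.10, 0.38 ± 0.08 and 0.30 ± 0.06, with overlap of the groups. The mean change of the list was negative in 5 of 6 pigs, from -0.57 in pig 1 to 0.08 in pig 4. At the same time 3 of the 14 ventricular cardiomyocyte markers fell, PLN, CKM and TNNT2 (21.4%, near the 23.6% of all genes that fell). The median over the marker list was -0.12, and the part of cardiomyocyte RNA in the mitochondrial falls was not tested.

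In the tricarboxylic acid cycle and pyruvate entry list 13 of 23 fell and 1 rose (median -0.24). Citrate synthase, CS, fell by 0.33 ± 0.08 and the succinate dehydrogenase subunits SDHA and SDHB by 0.35 ± 0.09 and 0.29 ± 0.08. The member that rose was PDK4, the kinase that shuts pyruvate out of the cycle, by 1.70 ± 0.33 (3.24-fold); it was higher in 5 of 6 pigs, with 0.00 in pig 4 and 3.28 in pig 6. Of 37 genes of fatty acid uptake, storage and oxidation 7 rose and 12 fell (51.4%, against 40.3% of all genes), with a median of -0.11. The 4 with the smallest p were all among those that rose. PLIN2, the coat protein of lipid droplets, rose 7.62-fold (2.93 ± 0.36, adjusted p = 1.56e-06), from between 6.33 and 8.05 (median 6.98) to between 8.61 and 11.58 (median 9.80), with no overlap. The acyl-CoA synthetases ACSL4 and ACSL3 rose by 1.41 ± 0.19 and 0.73 ± 0.12, and ANGPTL4, an inhibitor of lipoprotein lipase, by 1.83 ± 0.31. Among those that fell were the fatty acid transporters SLC27A6 (-0.64 ± 0.13) and SLC27A1 (-0.36 ± 0.07) and the carnitine carrier SLC25A20 (-0.39 ± 0.10), picked after their values were seen.

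Of 33 genes of glucose use and hypoxia, 6 rose and 10 fell (48.5%, against 40.3% of all genes), with a median of -0.07. PPP1R3B, which directs protein phosphatase 1 to glycogen, stood between 7.74 and 8.02 at baseline and between 6.58 and 6.99 at the end, a fall of 1.15 ± 0.15 that was shared evenly by the pigs (-1.38 to -0.83). The oxygen sensor EGLN1 fell by 0.85 ± 0.12 and ANKRD37, a target of hypoxia-inducible factor, by 0.87 ± 0.15. The glycolytic enzyme ENO1 rose by 0.90 ± 0.13. HIF1A (0.94 ± 0.18), SLC2A3 (0.76 ± 0.19), VEGFA (0.48 ± 0.11), ADM (0.47 ± 0.15) and EPAS1 (0.27 ± 0.10), picked after their values were seen, rose as well. Of 18 glucocorticoid-induced genes 9 rose and 3 fell (median 0.27). The smallest p values of this list were those of CEBPD and ANGPTL4, which rose by 1.03 ± 0.15 and 1.83 ± 0.31. KLF15, a cardiac glucocorticoid target that restrains growth, fell by 1.22 ± 0.23, with changes between -2.39 in pig 2 and -0.00 in pig 5, and TXNIP by 0.53 ± 0.09; TSC22D3 (-0.70 ± 0.13), picked after its values were seen, fell as well, though its other probe set gave 0.10 and did not pass.

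Of 22 genes of ion channels, gap junctions and calcium handling 6 fell and 2 rose (36.4%, against 40.3% of all genes; median -0.04). KCNJ8, the pore of a vascular and cardiac ATP-sensitive potassium channel, lay between 9.61 and 10.21 (median 9.94) at baseline and between 8.93 and 9.34 (median 9.09) at the end, a fall of 0.84 ± 0.07 (adjusted p = 1.22e-08) with no overlap. Phospholamban, PLN, which restrains the calcium pump of the sarcoplasmic reticulum, fell by 0.77 ± 0.13, the channel subunit KCNIP2 by 0.45 ± 0.10 and the kinase CAMK2D by 0.25 ± 0.06. The 2 that rose were SLN, an atrial relative of phospholamban (0.83 ± 0.32, adjusted p = 0.0491), and the gap junction gene GJA5 (0.64 ± 0.21), picked after its values were seen. Of 19 sarcomere proteins 5 fell and 1, NRAP, rose (31.6%; median -0.08): the M-band genes MYOM2 and MYOM1 fell by 0.40 ± 0.08 and 0.37 ± 0.09, NEBL by 0.42 ± 0.11, TNNT2 by 0.21 ± 0.06 and TMOD1, picked after its values were seen, by 0.22 ± 0.08.

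Of 20 measured vasoactive genes, 5 rose and 2 fell (35%, near the 40.3% of all genes; median 0.07). AGTR1, the angiotensin II receptor, lay between 9.78 and 10.40 (median 9.87) at baseline and between 8.41 and 9.43 (median 8.99) at the end, so that it fell by 0.98 ± 0.17 (adjusted p = 7.81e-05) without overlap, and the guanylate cyclase subunit GUCY1B3 fell by 0.43 ± 0.09. Beside EDN1, the prostaglandin synthase PTGS2 (1.42 ± 0.29), ADM (0.47 ± 0.15), PTGES (0.42 ± 0.15) and NOS3 (0.31 ± 0.12) rose, the last 3 picked after their values were seen. Of 21 protein breakdown and autophagy genes 2 rose, GABARAPL1 (0.39 ± 0.07) and UBB (0.24 ± 0.07), and 4 fell. That was 28.6% of the list, against 40.3% of all genes. The largest of these falls was that of FBXO32, the muscle ubiquitin ligase atrogin-1, by 1.13 ± 0.18 (2.19-fold, adjusted p = 3.36e-05); CAPN1 fell by 0.38 ± 0.10, and GABARAP and CAPN2, picked after their values were seen, by 0.24 and 0.19.

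The RNA-binding proteins that respond to temperature gave the firmest single result. Of 15 measured, 9 rose and 2 fell (73.3%, against 40.3% of all genes), with a median of 0.40. RBM3, a glycine-rich RNA-binding protein induced by mild cold, lay between 9.70 and 10.39 (median 9.92) at baseline and between 11.01 and 11.74 (median 11.44) at the end. All last values were above all baselines, and its rise of 1.45 ± 0.08 (2.74-fold) had the smallest adjusted p of the named genes, 8.32e-11. CIRBP, the close relative that is likewise induced by cold, went the other way, from between 8.77 and 9.24 (median 9.05) to between 7.19 and 8.16 (median 7.67), a fall of 1.38 ± 0.14 (adjusted p = 1.04e-07), also without overlap. The splicing factors SRSF5 and SRSF7 rose by 0.75 ± 0.07 and 0.85 ± 0.12, and the kinase CLK4, picked after its values were seen, fell by 0.29 ± 0.11. The labels give no body temperature.

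The 12 largest falls among genes lower in all 6 pigs were in genes of different kinds. In all 12 the groups did not overlap, whereas 4.95% of all genes had every last array below every baseline array. As these 12 were chosen for their falls on the same arrays, that separation is a description. STOX1, a winged-helix DNA-binding protein, lay between 5.36 and 6.17 (median 5.83) at baseline and between 3.17 and 3.70 (median 3.31) at the end, and it was 5.38-fold lower (-2.43 ± 0.16, adjusted p = 3.59e-10). The centrosomal gene CEP85 was 4.43-fold lower (-2.15 ± 0.21), FPGT, an enzyme of fucose salvage, 3.52-fold (-1.82 ± 0.16), and FAM198B 3.34-fold (-1.74 ± 0.16). A further probe set of FPGT passed with a change of -0.37, far smaller. GABRA4, a GABA receptor subunit, fell by 1.58 ± 0.20, the retinaldehyde dehydrogenase ALDH1A1 by 1.52 ± 0.18, NAP1L3 by 1.51 ± 0.16, the mitochondrial phosphatase PPTC7 by 1.46 ± 0.18, the methyltransferase METTL18 by 1.45 ± 0.11 and THNSL1 by 1.42 ± 0.19; FAIM and CIRBP complete the 12.

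**Figure D4:**
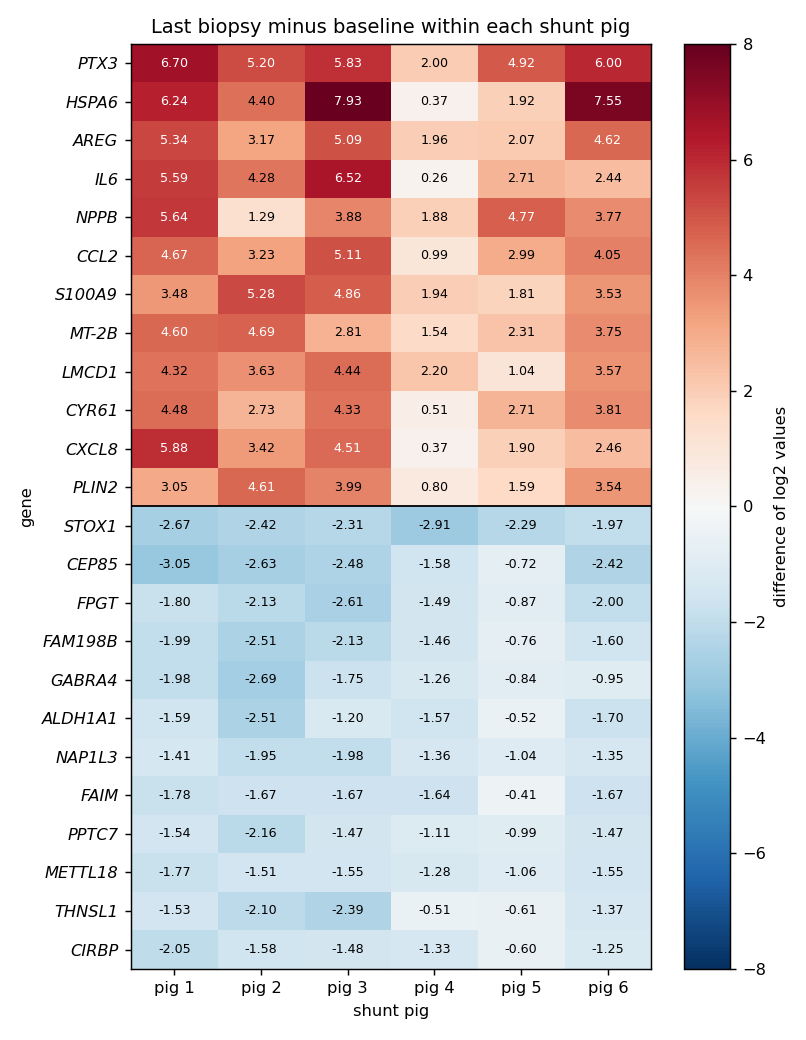
Change from baseline to the last biopsy (colour and printed value, difference of log2 values) of the 12 largest rises and the 12 largest falls shared by all 6 pigs (rows) in each shunt pig (columns). Most rises of pigs 4 and 5 are pale, for example 0.37 and 1.92 in HSPA6, though pig 5 reached 4.92 in PTX3 and 4.77 in NPPB, whereas STOX1 fell by between 1.97 and 2.91 in all 6 pigs.

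The pigs did not respond alike in size. The number of genes at least 2-fold higher at the last biopsy was 396, 429, 303 and 261 in pigs 1, 2, 3 and 6 but 107 and 81 in pigs 4 and 5, and the median absolute change of the genes that passed was 0.45 to 0.61 in the former and 0.26 and 0.24 in the latter. Of the 2725 genes that passed, 84% moved in the common direction in pig 4 and 88.3% in pig 5, against 96.8% to 98.7% in the others. Pig 4 had the highest baseline in 10 of the 12 largest rises shared by all pigs and pig 5 the lowest last value in 10 of the 12, and over all 1129 genes that rose these counts were 363 and 511. As the genes were chosen for their change on these same arrays, the counts are a description. Pigs 4 and 5 belong to different array sets.

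The middle biopsy, taken before the shunt, gives the first step of the course. At 120 min, against the same baseline arrays, 5773 probe sets (24.1%) passed, 2340 higher (9.75%) and 3433 lower (14.3%). The genes that passed numbered 1911 (28.2%), with 793 higher (11.7%) and 1118 lower (16.5%). PTX3 stood at 4.53 above baseline at 120 min and 5.11 at the last biopsy, CCL2 at 3.41 and 3.50, FHL1 at 0.97 and 1.19, and CIRBP at -1.38 at both. HSPA6 (5.45 and 4.73) and BTG2 (3.26 and 2.54) were higher at 120 min, and S100A9 (2.42 and 3.48) and ALDH1A1 (-0.89 and -1.52) further from baseline at the end. Of the oxidative phosphorylation subunits 13 had passed at 120 min, and of the ribosome biogenesis and translation factors 17.

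The step from 120 min to the last biopsy, tested by itself, called no probe set in limma (0 of 23999), while 2146 (8.94%) had an unadjusted p below 0.05. The smallest adjusted p of any gene was 0.105, for the pantothenate kinase PANK1 (-0.63), which was picked after its values were seen. For 6719 of 6765 genes (99.3%) the 95% interval of this step lay within 2-fold either way, with a median distance of 0.19 from the estimate to its bound. For NPPB the step was 0.95 with an interval from -0.28 to 2.18, and for S100A9 1.07 with an interval from 0.25 to 1.88. Without pig 5 the count was 11, without pig 4 it was 3, and with array quality weights 46.

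Whether the whole course differed between the arms was tested as an interaction, and since each arm had its own array sets, arm and array set cannot be told apart here. A single probe set passed (0.00417% of probe sets, 0.0148% of genes), that of RBM3, while 2922 (12.2%) had an unadjusted p below 0.05. RBM3 changed by 1.76, 1.70, 1.54, 1.07, 1.12 and 1.54 in shunt pigs 1 to 6 and by 0.60 to 0.79 in the 5 control pigs, so the arms did not overlap. The difference was 0.80 ± 0.12 with an adjusted p of 0.0200. It lost its call without shunt pig 1, 2, 3 or 6 and without control pig 1, 4 or 5 (adjusted p between 0.0559 and 0.146), with a difference of 0.74 to 0.88 whichever pig was left out. Left out in turn, shunt pig 4 raised the number of calls to 274 and shunt pig 5 to 118.

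The next 4 genes by p did not pass, each with an adjusted p of 0.0925. STOX1 changed by -2.43 in shunt pigs and -1.18 in control pigs, FHL1 by 1.19 and 0.55 and FSTL3 by 0.96 and 0.32. POGK, a domesticated transposase gene with a KRAB domain, changed by 0.59 and -0.00, though one shunt pig (0.28) lay just below the highest control pig (0.29). For 6403 of 6765 genes (94.6%) the interval of the difference between the arms was within 2-fold. Side by side, the list medians of the shunt and control arms were 1.30 and 0.62 for stretch-responsive genes and 0.78 and 0.33 for cytokines. They were 0.67 and 0.29 for ribosome biogenesis and translation factors and -0.22 and -0.02 for oxidative phosphorylation. For the immediate early genes they were 1.02 and 1.41. Differences between lists were not tested.

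**Figure D5:**
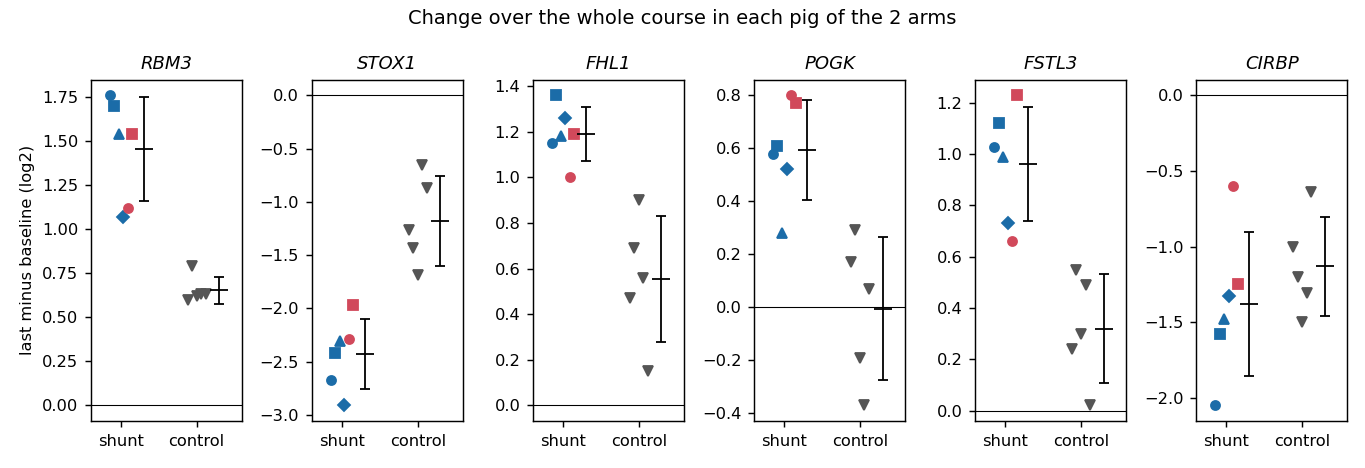
Change from baseline to the last biopsy (vertical axes, log2, a scale of its own for each gene) in each of the 6 shunt pigs and 5 control pigs, with the mean and SD of each arm as bars, for the 5 genes with the smallest p of the difference and for CIRBP. RBM3 rose by 1.07 to 1.76 in the shunt pigs and by 0.60 to 0.79 in the control pigs, and CIRBP overlapped between the arms.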

How the data were processed

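Biopsies of the right ventricular free wall of 11 pigs were hybridised as biotinylated cRNA to an Affymetrix porcine array, 3 biopsies per pig. The authors deposited 1 table of log2 expression values made with RMA, per the submitters' processing notes; neither its version nor its settings are stated there. The values were used as deposited, after 124 control probe sets were left out of 24123. Of the 23999 tested, 10069 carried 1 gene symbol in the platform annotation, 198 several and 13732 none (30.7% of these last passed); 9961 matched RefSeq by Entrez identifier. Each of the 6765 genes is represented by its brightest probe set, by the mean of the 33 arrays.

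Changes were tested with limma 3.58.1 in R 4.3.3 (lmFit, eBayes) in 1 fit to all 33 arrays, with the pig as a block, and with Benjamini-Hochberg adjustment across the probe sets and a threshold of 0.05. Values after ± are SE unless SD is written. The block pairs arrays of the same animal. Once group means were removed, the baseline and last arrays of a shunt pig correlated between 0.121 and 0.629, and those of different shunt pigs at a median of -0.0808. The fit was tested on simulated data.

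The comparison and the 30 gene lists and 13 marker lists were chosen with earlier results of these data known. Genes were named by rule: the 12 largest rises and falls shared by all 6 pigs, up to 4 members of each list with the smallest p, the 5 genes of smallest p in the difference between the arms, and a panel of 28 genes, 25 of them measured. Alternatives changed the scaling, the block, the arrays in the fit, the variance model, the filter, the weights, the smallest fold, the probe set rule and the pigs included.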

Additional observations from a re-analysis of the deposited data

Results flagged for a closer look

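In 87 sets of 6 changes, those of 44 genes and 43 lists, 6 had 1 pig far from the other 5, where chance sets apart about 1 in 20. Pig 5 changed by -0.41 in FAIM, while the others lay between -1.78 and -1.64. Pig 1 stood apart in 4 lists. Its mean change was 1.09 in the extracellular matrix genes (others 0.10 to 0.40), 0.57 in the fibroblast markers (others -0.13 to 0.11), 0.46 in the resident macrophage markers (others 0.09 to 0.17) and -0.23 in the lymphocyte markers (others 0.03 to 0.14). Pig 4 had a mean change of -0.02 in the cold-inducible and temperature-sensitive RNA-binding proteins, where the others lay between 0.25 and 0.41. Between the arms, the change of RBM3 was larger by 0.80 in the shunt pigs, by an interaction test; arm and array set cannot be told apart.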

How the results depend on the processing

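The 159 named genes past the threshold in the whole course kept their direction under every alternative run, 49 also passed under every one, and 132 passed under all but the 1.5-fold minimum and the fits to 1 array set of shunt pigs. Many of these genes were named for their change on the same arrays, so the kept direction is a description and no independent support. The count of 7815 probe sets became 7776 with each array centred on its median (3593 higher and 4183 lower), and 557 for changes tested as above 1.5-fold (336 higher and 221 lower), where the early step gave 261 and the arm difference 0. With 1 probe set per gene tested the 3 counts were 2881, 2056 and 3, and with the mean of a gene's probe sets 2779, 1910 and 3; both tested fewer features. Shunt pigs 1 to 4 alone gave 4804, 2369 and 0, and pigs 5 and 6 alone 1172, 454 and 1, the last a call in the lower direction and so not RBM3, with fewer arrays in each. Without the replicate block, ignoring the pairing by pig, they were 5770, 3771 and 0. A random block gave 1 call in the late step, and array quality weights 46 there and 189 in the arm difference. A fit to the compared arrays alone gave 5686 in the whole course, 5755 in the early step and 0 in the arm difference. In that setting the whole course no longer had more calls than the early step. The cause was not tested. Leaving out 1 pig at a time gave 6497 to 8047 calls in the whole course, 4214 to 5910 in the early step, 0 to 11 in the late step and 0 to 274 in the arm difference. Uncalled changes turned sign in NPPA (-0.66 in pigs 1 to 4 alone, -0.05 without pig 1, -0.39 without pig 5, up to 0.75 without pig 2) and in EGR1 (-0.10 in pigs 5 and 6 alone). The RBM3 difference between the arms kept its sign, from 0.68 to 0.88, with adjusted p of 0.315 without the block, 0.156 in the compared arrays alone, 0.0526 in pigs 1 to 4 alone and 0.455 in pigs 5 and 6 alone, and 1 when tested as above 1.5-fold. With 6 pigs and no unbanded animals over the same hours, time cannot be told apart from the treatments. Between the arms, each on its own arrays, array set cannot be told apart from the shunt either.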

Other observations

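Of 15 measured genes of cAMP, beta-adrenergic and protein kinase A signalling, 5 rose and 2 fell over the whole course (46.7%, near the 40.3% of all genes; median 0.01). RGS2, which shortens G protein signals, rose by 1.32 ± 0.21, the phosphodiesterase PDE4B by 1.20 ± 0.19, the cAMP-responsive factor CREM by 1.12 ± 0.19 and the regulatory subunit PRKAR1A by 0.51 ± 0.09, whereas the catalytic subunit PRKACA (-0.38 ± 0.11) and the phosphodiesterase PDE3A (-0.51 ± 0.19) fell; this last pair was picked after its values were seen. Of 7 measured circadian clock genes 3 rose and 1 fell (median -0.10). ARNTL, the activator of the clock, went from between 5.42 and 5.89 to between 6.39 and 7.02 and rose by 1.07 ± 0.12 without overlap. BHLHE40 (1.00 ± 0.20) and NFIL3 (1.20 ± 0.27), repressors within the clock, rose, and the output factor DBP fell by 0.29 ± 0.09.

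Of 18 cell cycle genes 5 fell (27.8%, near the 23.6% of all genes that fell) and none rose, with a median of -0.07. Among the falls were the ribonucleotide reductase subunit RRM1 (-0.40 ± 0.06), MCM2 (-0.28 ± 0.07), TOP2A (-0.41 ± 0.12) and CCNB1 (-0.47 ± 0.15). Of 13 genes of cholesterol synthesis and the sterol response, 2 rose and 4 fell (46.2%, against 40.3% of all genes), with a median of -0.02. Squalene synthase, FDFT1, fell by 0.89 ± 0.12 without overlap, while the next enzyme of the pathway, SQLE, picked after its values were seen, rose by 0.38 ± 0.11. Interferon-stimulated genes moved little: of 21, IRF1 (0.85 ± 0.27), IFIT2 (0.45 ± 0.14) and TAP1 (0.35 ± 0.13) rose and RSAD2 fell by 0.77 ± 0.18 (median 0.11). Of 32 proteasome subunits and activators 7 rose and 4 fell (34.4%, against 40.3% of all genes), with a median of 0.07. The activator PSME4 rose most firmly, by 0.70 ± 0.09.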
